A study of Mus musculus with 4 samples.

Results

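The genes described here are 10 genes of the intercalated disc, the cell-cell contact of heart muscle, outside the catenin-cadherin complex. They are the desmosomal genes Dsp, Dsg2, Dsc2 and Pkp2, the related plakophilin Pkp4, the connexins Gja1 and Gjc1, the intermediate filament gene Des, and the junctional scaffold and adhesion genes Tjp1 and Cxadr. They were taken by name, by Ensembl identifier, from the 53465 genes counted in the series, and all 10 passed the filter on low counts that left 18157 genes for testing. RNA came from the ventricles of mice at postnatal day 1. The CKO/CKO group, 2 libraries, carried Ctnnb1floxP/floxP with an alphaMHC-Cre transgene, and the WT group, 2 libraries, carried the same Ctnnb1floxP/floxP alleles without Cre, so the floxed alleles are shared and the transgene and the deletion cannot be told apart. The alphaMHC promoter drives Cre in cardiomyocytes, so the other cells of the ventricle keep the gene. The labels do not say whether the libraries are separate animals or pools, so a p-value reflects the spread among these samples alone, which may be technical.

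The intercalated disc joins cardiomyocytes end to end. Its desmosomes anchor the desmin filaments of neighbouring cells to each other, and its gap junctions, built from connexins, pass the electrical impulse. β-Catenin, the product of Ctnnb1, sits beside them in the adherens junction, where it links N-cadherin to actin, and it also acts in the nucleus as the co-activator of TCF/LEF factors in Wnt signalling. The comparison of CKO/CKO with WT hearts asks whether transcripts of the neighbouring junctions differ when Ctnnb1 is targeted in cardiomyocytes. In human disease, mutations of desmosomal genes cause arrhythmogenic cardiomyopathy.

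The 5′ ends of 3 of these genes are shown because Gja1 and Dsp stood at the 2 ends of the range of differences between the groups and Des was the most abundant, and because TCF/LEF sites are where β-catenin acts on DNA. Each window of 300 bases runs from 250 before to 50 after the start that the RefSeq table uses, on the forward strand of GRCm38.p6. For Dsp that start is also the GENCODE gene start given with its values, and for Gja1 and Des it lies upstream of it. Capitals mark matches, on either strand, to the AP-1 letters TGACTCA or TGAGTCA, the GC box letters GGGCGG and the E-box letters CAGCTG; no 2 matches in these windows overlapped.
Gja1, chr10:56377050-56377349: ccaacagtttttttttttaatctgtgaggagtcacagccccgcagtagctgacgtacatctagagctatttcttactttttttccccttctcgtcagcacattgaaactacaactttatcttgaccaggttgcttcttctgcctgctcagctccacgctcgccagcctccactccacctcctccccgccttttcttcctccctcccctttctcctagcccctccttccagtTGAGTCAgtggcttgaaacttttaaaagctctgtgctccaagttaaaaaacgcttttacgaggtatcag
Dsp, chr13:38151044-38151343: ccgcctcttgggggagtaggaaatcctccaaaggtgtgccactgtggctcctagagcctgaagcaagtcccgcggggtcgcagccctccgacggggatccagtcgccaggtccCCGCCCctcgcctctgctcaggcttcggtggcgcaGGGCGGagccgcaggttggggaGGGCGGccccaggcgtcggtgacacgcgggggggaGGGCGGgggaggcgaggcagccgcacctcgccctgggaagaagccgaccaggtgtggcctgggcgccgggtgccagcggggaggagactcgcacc
Des, chr1:75360042-75360341: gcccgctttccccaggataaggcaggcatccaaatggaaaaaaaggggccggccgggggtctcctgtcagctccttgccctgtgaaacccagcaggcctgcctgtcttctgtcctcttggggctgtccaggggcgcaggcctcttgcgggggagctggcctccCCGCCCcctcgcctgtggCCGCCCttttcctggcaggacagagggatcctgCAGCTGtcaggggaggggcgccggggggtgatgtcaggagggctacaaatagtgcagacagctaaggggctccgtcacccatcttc
The TCF/LEF letters CTTTG followed by 2 letters, each A or T, were searched as well, on both strands, and had 0 matches in these 3 windows and in the other 3 that the table holds, 2 for Pkp4 and 1 for Tjp1; 16.9% of all 32851 promoter windows of this length hold one. The Gja1 window held 1 AP-1 match, found in 5.20% of windows. The Dsp window held 4 GC boxes and the Des window 2, found in 35.7% of windows, and Des also had 1 E-box, found in 16.3%. These are letters in a short window and say nothing of binding.

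The libraries held 45651797 and 34027143 gene counts in CKO/CKO 1 and 2 and 43288936 and 44624578 in WT 1 and 2. The members were deeply counted, with 1358 to 73685 reads per gene and library, so that counting error was at most 2.71%. All 8 cardiomyocyte markers were detected, summing to 65920 and 66930 CPM (the count scaled to a fixed library size after TMM scaling) in CKO/CKO and 54400 and 50200 CPM in WT. Their log2 fold changes, CKO/CKO over WT, ran from -1.16 for Myh7 to 1.12 for Actc1, with a median of 0.26. The groups overlapped for 5 of the 8. For the other 3, both CKO/CKO libraries lay above both WT libraries, against 26.5% of all genes. Actc1 was at 14110 and 15710 CPM in CKO/CKO and 6227 and 7453 CPM in WT. Myh7 was at 4979 and 1128 CPM in CKO/CKO and 8657 and 4969 CPM in WT. The targeted gene Ctnnb1 was at 527 and 460 CPM in CKO/CKO and 409 and 434 CPM in WT, a whole-gene count that does not check the labels, as the exons that Cre removes are not named in them. WT 1 stood apart in 6 of 6 T cell and thymocyte markers, which summed to 1.76 and 0.947 CPM in CKO/CKO 1 and 2, 264 CPM in WT 1 and 4.76 CPM in WT 2. Thymic and other epithelial markers, of tissues rich in desmosomes, summed to 1.62 and 7.31 CPM in CKO/CKO, 68.5 CPM in WT 1 and 2.60 CPM in WT 2; of the 6, Foxn1 and Krt5 had a count of 0 in both CKO/CKO libraries. Foxn1, the transcription factor of thymic epithelium, was at 4.01 CPM in WT 1 and 0.0409 CPM in WT 2, so that the library labelled as ventricle in WT 1 held transcripts of thymic epithelium and thymocytes. CKO/CKO 2 had Xist, the RNA of the inactive X chromosome, at 602 CPM and a Kdm5d count of 0, against at most 0.327 CPM of Xist and at least 37.4 CPM of Kdm5d in the other 3. The counting tool's category of non-unique alignments made up 23.9% and 29.7% of all its entries in CKO/CKO and 19.4% and 21.0% in WT. The share of gene counts from the mitochondrial genome was 10.2% and 14.4% in CKO/CKO and 5.25% and 7.65% in WT. The part of these differences in the values below was not tested, except by leaving out each library.

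No junction gene passed the test. At an adjusted p under 0.05 in the quasi-likelihood test of edgeR, adjusted by Benjamini-Hochberg over all 18157 genes, 0 of 10 were higher and 0 of 10 lower in CKO/CKO, where 0.0110% of all genes were called higher and 0% lower. With p unadjusted and under 0.05, edgeR had 0 of 10 in either direction, against 11.8% of all genes in the higher direction, 11.2% in the lower and 23.0% in both together. DESeq2 called 0 of 10, against 5.58% of all genes higher and 4.43% lower, and limma-voom called 0 of 10 and 0% of all genes. The 2 groups overlapped in all 10 genes, whereas both CKO/CKO libraries lay above both WT libraries for 26.5% of all genes and below both for 29.7%, 56.2% together. Among the 3954 protein-coding genes with a mean level at or above that of the lowest member, 49.0 CPM, 58.6% had groups that did not overlap. The median log2 fold change of the 10 was -0.03, beside -0.02 over all genes tested, and their values ran from -0.26 for Dsp to 0.40 for Gja1.

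These results do not show that there were no differences. The intervals given here hold for the spread among these libraries and for TMM scaling alone. The 95% confidence intervals of the fold change, CKO/CKO over WT, had lower bounds between 0.496, for Dsp, and 0.878, for Dsc2, and upper bounds between 1.30, for Pkp2, and 2.07, for Gja1. The adjusted p-values in edgeR ran from 0.397 for Dsc2 to 0.994 for Des. In the authors' deposited table, the adjusted p-values of the 10 ran from 0.361 for Gja1 to 0.979 for Des.

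**Figure D1:**
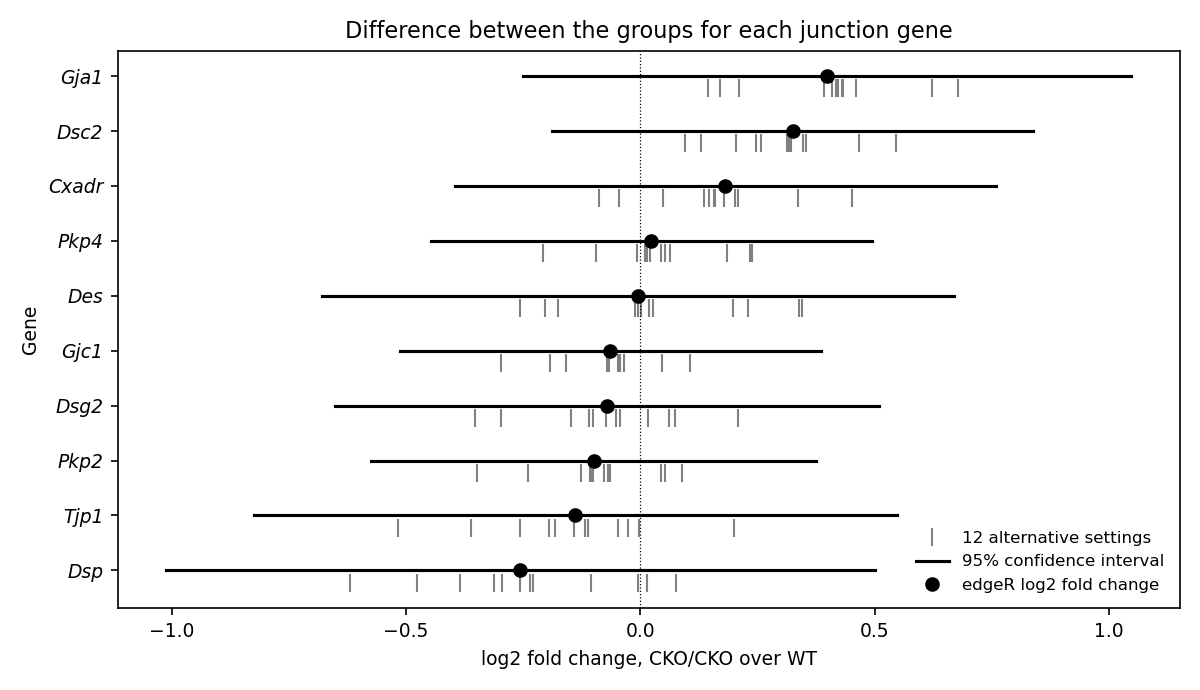
Log2 fold change of CKO/CKO over WT (x axis) for each of the 10 junction genes (y axis), with points for edgeR's estimate, lines for its 95% confidence interval from 2 libraries per group and grey ticks for 12 alternative settings. All 10 intervals span 0, from the lowest estimate of -0.26 for Dsp to the highest of 0.40 for Gja1.

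The desmosomal plaque is built around desmoplakin, the product of Dsp, which ties the desmosome to desmin. Dsp (ENSMUSG00000054889.10) spans 38151294 to 38198577 of chromosome 13, forward strand, in GRCm38. It was at 995 and 596 CPM in CKO/CKO 1 and 2 and at 1044 and 855 CPM in WT 1 and 2. CKO/CKO 2 was the lowest of the 4 libraries, while CKO/CKO 1 lay between the WT libraries. The means were 795 ± 282 CPM in CKO/CKO and 950 ± 134 CPM in WT (SD, n = 2 each), a difference of -0.26 ± 0.31 in log2 (SE; adjusted p = 0.658, edgeR). The value was 0.08 without CKO/CKO 2, -0.62 without CKO/CKO 1 and -0.11 without WT 1, the library with the thymic and epithelial transcripts, none of them past the threshold. With trends of each library with GC content and length removed it was 0.01 (adjusted p = 0.980 in edgeR). On the opposite strand the annotated transcript Gm10129 shares 499 of its 9659 exon bases, and the counting setting for strand is not given in the sources used here, so reads of the overlap cannot be told apart.

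Pkp2 encodes plakophilin 2, the plaque protein that links desmosomal cadherins to desmoplakin and the plakophilin that heart muscle mainly uses. Pkp2, on chromosome 16 from 16213318 to 16272712 (forward strand), was at 247 and 301 CPM in CKO/CKO and at 288 and 299 CPM in WT. Its groups spanned each other, CKO/CKO 1 being lowest and CKO/CKO 2 highest, at a log2 difference of -0.10 ± 0.19 (SE; adjusted p = 0.792, edgeR). It had the lowest upper bound of the 10, a fold change of 0.933 with 95% limits of 0.672 and 1.30. Pkp4, the plakophilin relative found at adherens junctions as well as desmosomes, lies on chromosome 2 from 59160850 to 59355208 (forward strand). Pkp4 was at 225 and 180 CPM in CKO/CKO and at 205 and 194 CPM in WT, so that both WT values lay inside the CKO/CKO range. Its group difference in log2 was 0.02 ± 0.19 (SE; adjusted p = 0.954, edgeR).

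Dsg2 and Dsc2 encode desmoglein 2 and desmocollin 2, the desmosomal cadherins of heart muscle, and lie near each other on chromosome 18, Dsg2 from 20558074 to 20604521 (forward strand) and Dsc2 from 20030633 to 20059554 (reverse strand). Dsg2 was at 145 and 95.1 CPM in CKO/CKO and at 119 and 133 CPM in WT. CKO/CKO held both the highest and the lowest of the 4 values, and the group difference was -0.07 ± 0.24 in log2 (SE; adjusted p = 0.883, edgeR). The antisense gene Gm16090 shares 330 of its 8268 exon bases. Dsc2 was at 63.1 and 45.9 CPM in CKO/CKO and at 39.7 and 47.3 CPM in WT. CKO/CKO 1 was the highest, and CKO/CKO 2 lay between the WT libraries. The log2 difference of Dsc2 was 0.33 ± 0.21 (SE; adjusted p = 0.397, edgeR), a fold change of 1.25 with 95% limits of 0.878 and 1.79. Its sign was the same under all 12 alternatives, from 0.10 to 0.54, which refit the same libraries and are no independent support. The value was 0.13 without CKO/CKO 1, 0.54 without CKO/CKO 2, 0.20 without WT 1 and 0.47 without WT 2.

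Gap junctions of the working ventricle consist mainly of connexin 43, the product of Gja1. Gja1 (ENSMUSG00000050953.10) spans 56377330 to 56402513 of chromosome 10, forward strand. It was at 590 and 762 CPM in CKO/CKO and at 425 and 600 CPM in WT. CKO/CKO 2 was highest and WT 1 lowest, and CKO/CKO 1 lay just under WT 2. The means were 676 ± 122 CPM in CKO/CKO and 513 ± 124 CPM in WT (SD, n = 2 each), the largest difference among the 10, 0.40 ± 0.27 in log2 (SE; adjusted p = 0.414, edgeR). The sign was the same under all 12 alternatives, from 0.15 with library totals in place of TMM scaling to 0.68 without WT 2. These alternatives refit the same libraries and are no independent support. The log2 difference was 0.62 without CKO/CKO 1 and 0.21 without CKO/CKO 2. It was 0.17 without WT 1, the lowest library for Gja1 and the one with thymic transcripts. Gjc1 encodes connexin 45, the connexin of the early heart and, later, of the conduction system. Gjc1, on chromosome 11 from 102799579 to 102819700 (reverse strand), was at 62.2 and 49.1 CPM in CKO/CKO and at 54.2 and 62.1 CPM in WT. CKO/CKO 2 was the lowest of the 4 libraries and the highest values of the groups were nearly equal, at a log2 difference of -0.06 ± 0.18 (SE; adjusted p = 0.864, edgeR).

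Des encodes desmin, the intermediate filament protein that runs from the Z-discs to the desmosomes. Des, on chromosome 1 from 75360329 to 75368579 (forward strand), was at 1204 and 1577 CPM in CKO/CKO and at 1580 and 1212 CPM in WT. Each group had 1 high and 1 low library at nearly the same levels, so that the means were 1391 ± 264 CPM in CKO/CKO and 1396 ± 260 CPM in WT (SD, n = 2 each). The group difference in log2 was -0.01 ± 0.28 (SE; adjusted p = 0.994, edgeR), with 95% limits on the fold change of 0.624 and 1.59, and it was 0.35 (adjusted p = 0.405 in edgeR) after removal of the GC content and length trends. The antisense gene Gm15179 shares 220 of the 3754 exon bases of Des.

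Tjp1 encodes ZO-1, the scaffold that borders gap junction plaques and binds connexin 43. Tjp1, on chromosome 7 from 65296165 to 65527781 (reverse strand), was at 197 and 116 CPM in CKO/CKO and at 158 and 187 CPM in WT. The CKO/CKO libraries were again the highest and the lowest of the 4, at a log2 difference of -0.14 ± 0.28 (SE; adjusted p = 0.800, edgeR) that was 0.20 without CKO/CKO 2 and -0.52 without CKO/CKO 1. Cxadr encodes the coxsackievirus and adenovirus receptor, an adhesion molecule of the disc that the developing heart and atrioventricular conduction need. Cxadr, on chromosome 16 from 78301489 to 78359774 (forward strand), was at 88.2 and 59.0 CPM in CKO/CKO and at 58.6 and 71.2 CPM in WT. CKO/CKO 1 was highest and the other 3 libraries lay between 58.6 and 71.2 CPM, at a log2 difference of 0.18 ± 0.24 (SE; adjusted p = 0.684, edgeR). Btg3, a protein-coding gene on the opposite strand, shares 695 of the 7400 exon bases of Cxadr.

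Per length, the order of the genes was nearly the same in all 4 libraries. Levels between genes are given as RPKM, the TMM-scaled CPM divided by the kilobases of merged exons. Des led with 371 RPKM over the 4 libraries, a level reached by 0.645% of the 14565 protein-coding genes tested. Dsp followed at 90.3 RPKM, Gja1 at 57.9 RPKM and Pkp2 at 52.9 RPKM, levels reached by 3.07%, 4.53% and 5.03% of protein-coding genes. Dsp and Gja1 changed places in CKO/CKO 2, where Dsp was at 61.7 and Gja1 at 74.3 RPKM. Gja1 and Pkp2 did not differ beyond their spread either, since Gja1 was the higher in CKO/CKO 1, CKO/CKO 2 and WT 2 and Pkp2 in WT 1. Pkp4 at 35.3 RPKM, Tjp1 at 21.1 RPKM, Dsg2 at 14.9 RPKM and Gjc1 at 11.4 RPKM held the fifth to eighth places in each library. Cxadr at 9.36 RPKM and Dsc2 at 9.29 RPKM came last, a level reached by 29.8% and 29.9% of protein-coding genes. Dsc2 held place 9 in both CKO/CKO libraries and place 10 in both WT libraries, with Cxadr in the other place. In CKO/CKO 1 the order was nearly a tie, with Dsc2 at 11.95 and Cxadr at 11.92 RPKM.

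**Figure D2:**
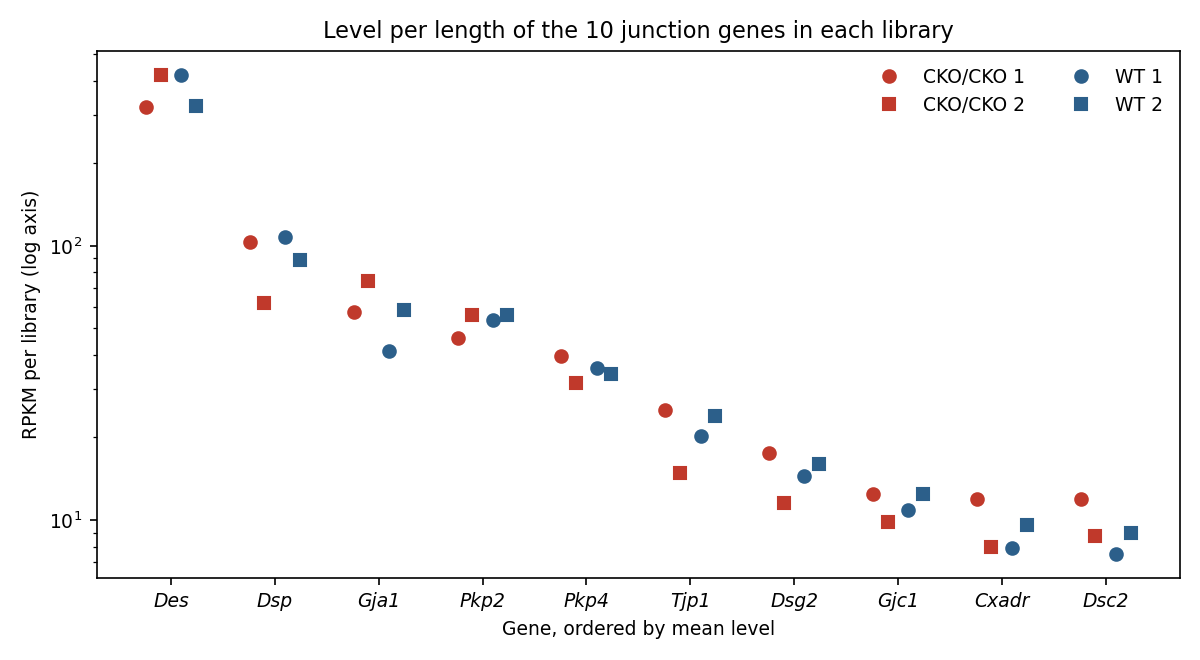
RPKM per library (y axis, log scale) of the 10 junction genes (x axis, ordered by mean), with CKO/CKO libraries in red and WT libraries in blue, replicate 1 as circles and replicate 2 as squares. The groups overlap for every gene, from Des at 321 and 420 RPKM in CKO/CKO and 421 and 323 RPKM in WT down to Dsc2 at 12.0 and 8.70 RPKM in CKO/CKO and 7.52 and 8.97 RPKM in WT.

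Ratios between 2 genes of the same library do not depend on how libraries are scaled. Connexin 43 transcripts exceeded connexin 45 transcripts per length in every library, Gja1 over Gjc1 being 4.63 and 7.57 in CKO/CKO and 3.82 and 4.72 in WT. Dsp over Pkp2 was 2.24 and 1.10 in CKO/CKO and 2.01 and 1.59 in WT. In both pairs the groups overlapped. Dsg2 over Dsc2, the balance of the desmosomal cadherins, was 1.46 and 1.32 in CKO/CKO and 1.92 and 1.79 in WT, lower in both CKO/CKO libraries. Dsc2 over Gjc1 was 0.962 and 0.887 in CKO/CKO and 0.694 and 0.723 in WT, higher in both. Pkp2 over Gja1 was 0.801 and 0.756 in CKO/CKO and 1.30 and 0.953 in WT, lower in both. Such ratios keep the trends with GC content and length. The fitted trends differed between CKO/CKO and WT by -0.16 log2 units for Dsg2 and 0.07 for Dsc2. For Gjc1 the value was -0.02, for Pkp2 -0.15 and for Gja1 -0.02, and the part of these trends in the ratios was not tested. Of all 45 pairs of members, 11 had ratios whose groups did not overlap, or 24.4%, against 58.0% of the pairs of protein-coding genes at such levels, and the pairs named here were chosen after their values were seen.

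The 2 CKO/CKO libraries differed from each other in these genes. CKO/CKO 2 differed from CKO/CKO 1 by a median of 0.42 in absolute log2 CPM over the 10 genes, beside 0.27 over the 3954 protein-coding genes at such levels. WT 2 differed from WT 1 by a median of 0.25, beside 0.14 over those genes. The genes divided by direction. In CKO/CKO 2, 7 of 10 were lower than in CKO/CKO 1, with ratios of 0.590 for Tjp1, 0.599 for Dsp, 0.658 for Dsg2, 0.668 for Cxadr, 0.728 for Dsc2, 0.789 for Gjc1 and 0.800 for Pkp4. The other 3 were higher, with ratios of 1.22 for Pkp2, 1.29 for Gja1 and 1.31 for Des. Among the 3954 genes, 52.4% were lower in CKO/CKO 2. Trends with GC content and length, fitted over all nuclear genes, put Dsp at -0.27 log2 units in CKO/CKO 2 and 0.20 in WT 1, and Des at -0.15 in CKO/CKO 2 and 0.26 in WT 1. For Gja1 the trend was -0.16 in CKO/CKO 2, where its measured deviation from the mean of the 4 libraries was 0.39. CKO/CKO 2 is also the library with Xist and with the highest share of non-unique alignments, and the part of either in these ratios was not tested.

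**Figure D3:**
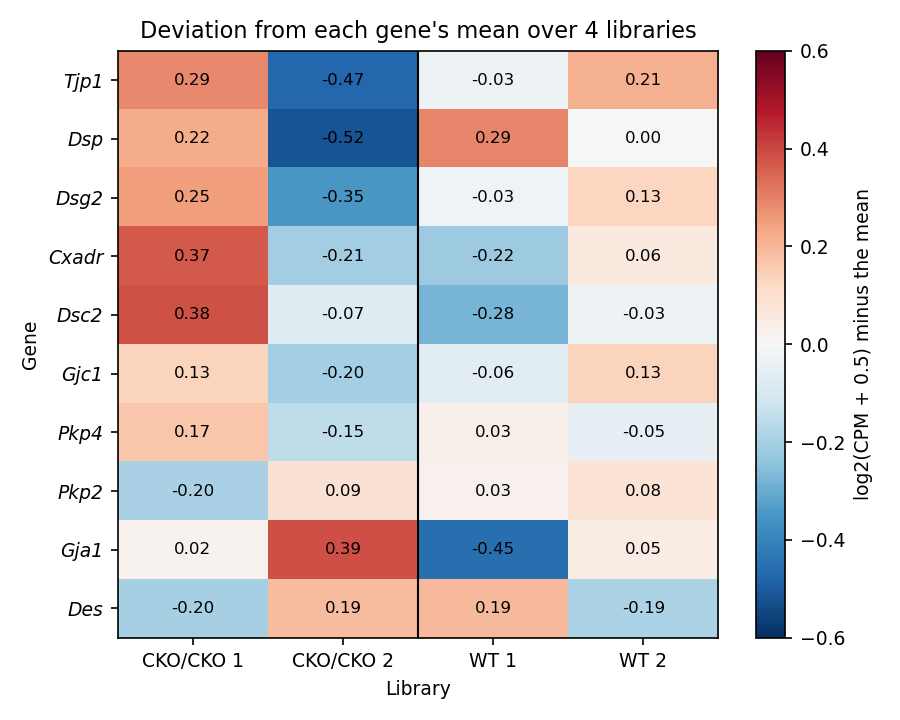
Deviation of log2(CPM + 0.5) from each gene's mean over the 4 libraries (colour and printed value) for the 10 junction genes (rows, ordered by the difference between CKO/CKO 2 and CKO/CKO 1) in each library (columns). Tjp1, at -0.47, and Dsp, at -0.52, were lowest in CKO/CKO 2, where Gja1 was at 0.39.

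For Dsp, Gja1 and Des, the 3 protein-coding genes with the most similar profile over the 4 libraries were found by Euclidean distance of centred log2(CPM + 0.5), among genes within 1 log2 unit of the same mean level. Nearest to Dsp, of 222 genes, were Clasp1, which stabilizes microtubule ends (distance 0.152), Palld, the actin-binding palladin (0.170), and Ryr2, the calcium release channel of cardiomyocytes (0.244). Nearest to Gja1, of 365, were Hspa5, the endoplasmic reticulum chaperone BiP (0.124), Fn1, fibronectin (0.140), and Cd36, a fatty acid transporter (0.217). Nearest to Des, of 103, were Acaa2, a thiolase of mitochondrial fatty acid oxidation (0.158), Rack1, a ribosome-associated scaffold (0.163), and Rps9, a ribosomal protein (0.170). With 4 libraries such likeness is a description only.

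Other desmosome genes gave 0 calls in edgeR as well. Of 11 listed, 6 were tested, with a median log2 fold change of -0.40, or 0.01 with the GC content and length trends removed. An unadjusted p under 0.05 was found for 1, in the higher direction, against 11.8% of all genes. Perp, a tetraspan membrane protein of desmosomes, was at 258 and 373 CPM in CKO/CKO and at 190 and 185 CPM in WT, above both WT libraries in both, a log2 difference of 0.75 ± 0.23 (SE; adjusted p = 0.142, edgeR). DESeq2 called it higher (adjusted p = 0.0310), the only call that DESeq2 made among the genes of the 6 related lists that edgeR tested. Jup, plakoglobin, the catenin shared by desmosomes and adherens junctions and the closest relative of β-catenin, was at 210 and 183 CPM in CKO/CKO and at 290 and 238 CPM in WT. Both CKO/CKO libraries lay below both WT libraries, a log2 difference of -0.43 ± 0.20 (SE; adjusted p = 0.259, edgeR). Pkp1, Pkp3 and Dsc3, epithelial desmosome genes under the filter on low counts, reached 4.38, 2.64 and 1.74 CPM in WT 1, the library with epithelial markers, and at most 0.203 CPM in the other 3, and DESeq2 called Pkp1 lower (adjusted p = 0.0437). These 3 were chosen after their values were seen.

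Of 21 other connexins and pannexins, 8 were tested and 13 fell under the filter. In edgeR there were 0 calls, and 0 had an unadjusted p under 0.05, against 23.0% of all genes. The median log2 fold change was -0.40, or -0.14 with the GC content and length trends removed. Gja5, connexin 40 of the atria and the conduction system, had the smallest p. It was at 62.8 and 21.9 CPM in CKO/CKO and at 62.4 and 127 CPM in WT, CKO/CKO 1 lying just above WT 1, a log2 difference of -1.15 ± 0.54 (SE; adjusted p = 0.264, edgeR). The 6 atrial and conduction markers, Gja5 among them, summed to 1508 and 1639 CPM in CKO/CKO and 1640 and 2791 CPM in WT. None was at 0. The median log2 fold change of these 6 was -0.82, with values from -1.51 to 0.22, and their part in the value of Gja5 was not tested. Sln, sarcolipin of the atria, had the smallest p of that list, at 34.7 and 40.1 CPM in CKO/CKO and 73.6 and 139 CPM in WT (adjusted p = 0.0925, edgeR). In bulk ventricle, fewer cells of a type and less RNA per cell cannot be told apart.

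In the cadherin-catenin complex, 9 of 10 genes were tested with 0 calls in edgeR. An unadjusted p under 0.05 was found for 0, against 23.0% of all genes. The median log2 fold change was 0.10, or 0.33 without CKO/CKO 2. Of 11 other intermediate filament and partner genes, all were tested and 0 were called. The median was 0.34, or 0.09 without CKO/CKO 2 and 0.58 without CKO/CKO 1. An unadjusted p under 0.05 was found for 1, in the higher direction, against 11.8% of all genes. That gene was Lmnb1, lamin B1 of the nuclear envelope, at 76.5 and 60.8 CPM in CKO/CKO and 41.5 and 48.3 CPM in WT (log2 fold change 0.61 ± 0.19, SE; adjusted p = 0.140, edgeR). Of 14 tight junction and adhesion partners of Tjp1 and Cxadr, 0 were called, and the median was -0.27. An unadjusted p under 0.05 was found for 1 in the higher and 3 in the lower direction, against 11.8% and 11.2% of all genes. Tjp3, a further ZO protein, had the smallest p among these partners, at 0.677 and 0.710 CPM in CKO/CKO and 1.91 and 1.47 CPM in WT (log2 fold change -1.28 ± 0.38, SE; adjusted p = 0.137, edgeR). Of 16 disc scaffold and channel genes, 0 were called, and 0 had an unadjusted p under 0.05, against 23.0% of all genes. Their median was 0.10. Scaling by library totals in place of TMM moved the median of all genes to -0.26. The list medians were then -0.64 for the other desmosome genes, -0.65 for the connexins and pannexins, -0.12 for the cadherin-catenin complex, 0.08 for the intermediate filament genes, -0.53 for the tight junction partners and -0.15 for the scaffold genes.

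**Figure D4:**
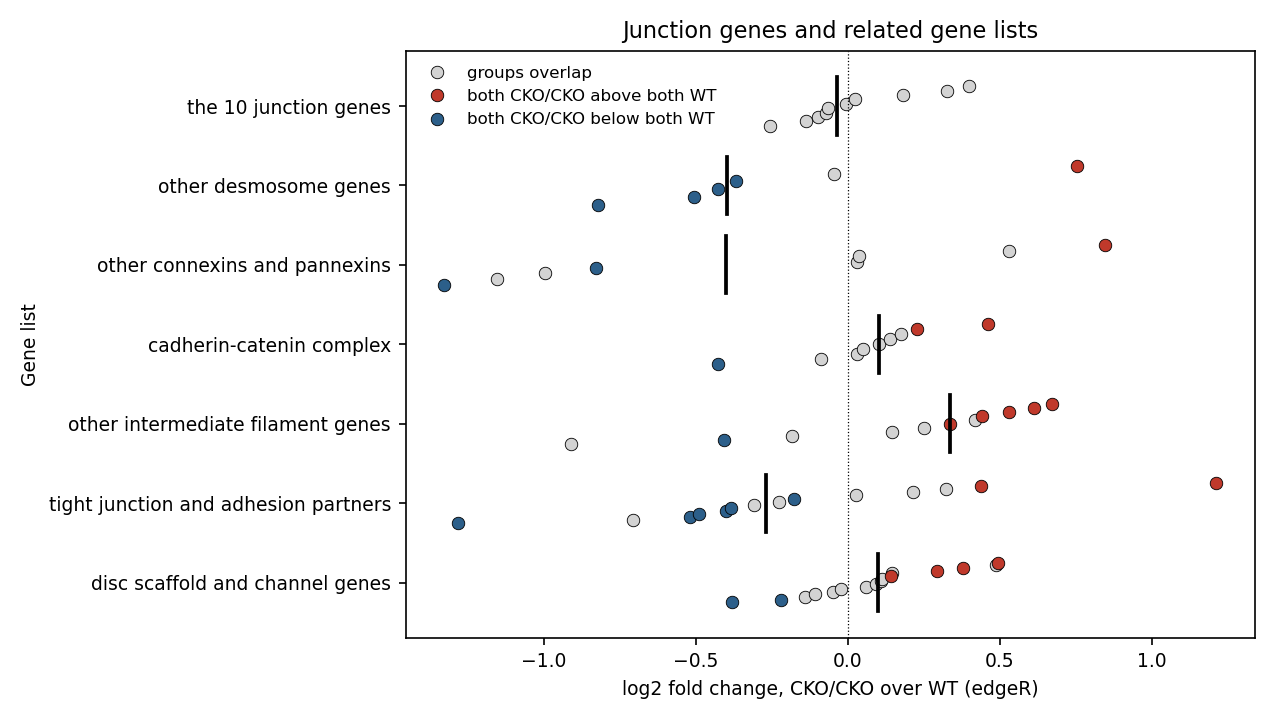
Log2 fold change of CKO/CKO over WT in edgeR (x axis) for the tested genes of 7 lists (y axis); each point is a gene, black bars are list medians, and colour shows whether both CKO/CKO libraries lay above (red) or below (blue) both WT libraries or the groups overlapped (grey). The 10 junction genes are all grey around a median of -0.03, while Perp at 0.75 stands at the right of the other desmosome genes.

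Markers of cardiomyocytes and of other cells were measured beside these genes. Of 60 tested markers in 10 lists, edgeR called 0. Its p before adjustment was under 0.05 for 2 that were higher, against 11.8% of all genes, and 18 that were lower, against 11.2%. The 2 were Actc1, of cardiomyocytes, and Acta2, and 6 of the 18 were T cell and thymocyte markers, which stood out in WT 1. In DESeq2 the calls numbered 2 upward, the same 2 genes, and 10 downward, 5 of them T cell and thymocyte markers. Over all genes DESeq2 called 5.58% higher and 4.43% lower. In limma-voom there were 0 calls. Endothelial markers, 7 of 7 detected, summed to 1250 and 1454 CPM in CKO/CKO and 1291 and 1400 CPM in WT. Within that sum Emcn was at 75.1 and 268 CPM in CKO/CKO and 66.2 and 80.0 CPM in WT. Both CKO/CKO libraries lay below both WT libraries for 3 of the 7, against 29.7% of all genes. The groups overlapped for the other 4, and the median log2 fold change was -0.06. Fibroblasts also express Gja1, and their 7 markers summed to 2962 and 2878 CPM in CKO/CKO and 1810 and 2726 CPM in WT. The lowest library was WT 1 for 4 of the 7 and a CKO/CKO library for the other 3. The groups overlapped for 5 of the 7, and for 2 both CKO/CKO libraries lay above both WT libraries, against 26.5% of all genes. The median log2 fold change was 0.05. Postn, periostin, had the smallest p of that list, at 1343 and 1376 CPM in CKO/CKO and 582 and 1098 CPM in WT (adjusted p = 0.279, edgeR). Mural cell markers summed to 1780 and 1537 CPM in CKO/CKO and 643 and 821 CPM in WT. In CKO/CKO most of that sum was Acta2, the smooth muscle actin that immature cardiomyocytes also express. Acta2 was at 1375 and 1137 CPM in CKO/CKO and 173 and 333 CPM in WT. Its adjusted p was 0.0925 in edgeR and 2.757e-09 in DESeq2, which called it higher. The other 5 mural markers had log2 fold changes between -0.65 and -0.08, 3 of them with an unadjusted p under 0.05, and the median of the list was -0.28. Epicardial markers summed to 174 and 168 CPM in CKO/CKO and 139 and 159 CPM in WT. Macrophage markers summed to 73.7 and 81.6 CPM in CKO/CKO and 188 and 107 CPM in WT. Of that sum Ptprc made up 54.1 CPM in WT 1, the library with thymocyte transcripts. It was at 5.64 CPM in WT 2 and 4.13 and 3.25 CPM in CKO/CKO. Log2 fold changes of the 6 macrophage markers ran from -3.01 for Ptprc to -0.53, with a median of -0.72. Erythroid markers summed to 763 and 656 CPM in CKO/CKO and 1085 and 1118 CPM in WT. No marker of these 6 lists was at 0 in any library, and the part of these cells in the values of the junction genes was not tested.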

How the data were processed

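Poly(A) RNA of 4 ventricle samples was sequenced from stranded Kapa libraries, per the labels' protocols. The submitters' processing notes name bcl2fastq 2.16.0.10, FastQC 0.11.5, STAR 2.5.3a, HTSeq 0.6.1, DESeq2 1.18 and GRCm38; the read length, the strand setting and the annotation release were not stated there. CPM and RPKM here are computed from the counts. The authors deposited whole-number read counts per gene with no scaling, and a table that repeats them and adds the authors' log2 fold changes, p-values and adjusted p-values, with settings that the deposited files do not state. Its 4 normalized columns were not used.

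Of 53465 genes, 53360 were matched to GENCODE vM21 on GRCm38 by identifier without version, 2670 of them with another version number. The 5 HTSeq summary categories were left out of library sizes. The category with no assigned feature made up 4.38% and 3.18% of all entries in CKO/CKO and 6.06% and 6.45% in WT. The counts were fitted with edgeR 4.0.16 (R 4.3.3): filterByExpr, TMM factors of 0.972 and 0.869 in CKO/CKO and 1.08 and 1.10 in WT, and the quasi-likelihood test without a block, adjusted over 18157 genes at a threshold of 0.05. Confidence intervals of 95% use its 6.02 degrees of freedom, and SE is the log2 fold change over the square root of F. DESeq2 1.42.0, limma-voom (limma 3.58.1) and other settings were alternatives. The tests were tried on simulated data. Genes and lists were chosen with earlier results of these data known. Named beside the 10 genes and Ctnnb1 were, from each list, genes past the threshold or else the gene with the smallest p. Myh7, Emcn, Ptprc, Pkp1, Pkp3, Dsc3, Foxn1, Krt5, Xist and Kdm5d were added after their values were seen. The remaining genes with the smallest p were Cldn5, Krt19, Cd68, Trbc2, Epcam and Hba-a2. One further gene that this rule names is not reported here.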

Additional observations from a re-analysis of the deposited data

How the results depend on the processing

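Of 120 log2 fold changes of the 10 junction genes over 12 alternative settings, 0 passed the threshold and 24 had the other sign; the causes were not tested. Members called were 0 higher and 0 lower under all 12. Des was 0.0178 with DESeq2, 0.0259 with DESeq2's size factors, 0.001 with limma-voom, 0.345 with GC content and length offsets and 0.338 with these and the replicate block. With the offsets Dsp was 0.0138, Dsg2 0.0733 and Pkp2 0.0533, and with the block as well Dsg2 was 0.0619 and Pkp2 0.043. Library totals gave Pkp4 -0.208 and Cxadr -0.0451. As single libraries were left out, Dsp ran from -0.620 (without CKO/CKO 1) to 0.0767 (without CKO/CKO 2), Dsg2 from -0.354 to 0.208, Tjp1 from -0.517 to 0.201 and Gjc1 from -0.193 to 0.105 between the same 2, Cxadr from -0.0875 to 0.452 and Pkp4 from -0.0942 to 0.185 likewise, and Pkp2 from -0.240 (without CKO/CKO 2) to 0.0884 and Des from -0.203 to 0.229 (both highest without CKO/CKO 1). The median of the 10 was -0.276 with library totals, beside -0.26 over all genes, and ran from -0.0908 (without CKO/CKO 1) to 0.193 (without CKO/CKO 2). Over all genes, calls higher and lower were 951 and 755 with DESeq2, 313 and 241 with no filter on low counts, 0 and 0 with limma-voom, 9 and 9 with the replicate block and 0 and 0 with the block and the offsets, against 2 and 0 in edgeR; with a library left out they were 0 to 9 and 0 to 30. A lone sample left in a group was assumed to vary like the other group. The labels do not say that replicate numbers pair the libraries, and deviations of same-numbered libraries from their group means correlated at -0.134. Over the 12 settings, list medians ran from -0.639 (library totals) to 0.0143 (offsets) for the other desmosome genes, from -0.655 to -0.138 under the same 2 settings for the connexins and pannexins, and from -0.528 to -0.128 likewise for the tight junction partners. They ran from -0.124 (library totals) to 0.335 (without CKO/CKO 2) for the cadherin-catenin complex, from 0.0826 (library totals) to 0.582 (without CKO/CKO 1) for the intermediate filament genes and from -0.149 (library totals) to 0.209 (block and offsets) for the scaffold genes.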
